A study of Macaca mulatta with 449 samples.

Results

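Transcript levels of 8 myelin genes (MBP, MOBP, MOG, MAG, CLDN11, CNP, UGT8 and ERMN) were followed through the brain of the rhesus macaque. The genes were chosen by symbol, as 8 of the 30807 genes of the count table, and all 8 were counted. The study profiled small tissue blocks dissected from the brains of 8 macaques by Ribo-Zero RNA-seq, which depletes ribosomal RNA and does not select for a poly(A) tail. Each animal gave 1 sample of each of 51 sub-regions, of which 31 were cerebral cortex and 20 were not. The labels name no treatment and no engineered allele. The 4 young animals were Rhesus 4 (female, 3.2 years), Rhesus 7 (male, 4 years), Rhesus 8 (male, 3.8 years) and Rhesus 10 (female, 5 years), and the 4 mid-aged animals were Rhesus 2 (male, 10 years), Rhesus 3 (male, 10 years), Rhesus 6 (female, 10 years) and Rhesus 11 (female, 9.8 years). Each combination of sex and stage held 2 animals, and every sub-region was taken from all 8.

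In the central nervous system myelin is made by oligodendrocytes, which wrap axons in layers of membrane and so speed the conduction of impulses. White matter tracts such as the corpus callosum are dense in myelin, and the grey matter of the cortex is sparser, with fibres that enter and cross it. MBP (ENSMMUG00000011333) encodes myelin basic protein, which holds the cytoplasmic faces of compact myelin together, and MOBP (ENSMMUG00000009197) encodes a further basic protein of compact myelin. MOG (ENSMMUG00000002967) is a glycoprotein of the outermost surface of the sheath, MAG (ENSMMUG00000017617) is an adhesion molecule of its inner face next to the axon, and CLDN11 (ENSMMUG00000009274) is the claudin of the tight junctions between the layers. CNP (ENSMMUG00000016114) is a cyclic nucleotide phosphodiesterase of non-compact myelin, and UGT8 (ENSMMUG00000014456) is the enzyme that makes the myelin lipid galactosylceramide. ERMN (ENSMMUG00000038413) encodes ermin, a cytoskeletal protein of mature oligodendrocytes.

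The samples held 7784678 to 31083490 counts each, with a median of 10698602. Levels are given as CPM, counts relative to the library size, with sizes scaled by the TMM method of edgeR, and the level of the 8 genes together as the mean of their log2(CPM + 1). Of the 8 genes, 7 had a count in every sample, and MOG in all but 1 pituitary sample. In bulk tissue fewer cells of a type and less RNA per cell cannot be told apart, so levels are amounts of transcript and not numbers of oligodendrocytes. Gene lengths were not used, and levels are compared between sub-regions and not between genes.

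The corpus callosum, the large tract that joins the hemispheres, had the highest mean level of every one of the 8 genes among the 51 sub-regions. MBP ran from 49140 to 60848 CPM over the 8 callosum samples, with a median of 54129 (mean 54444 ± 4675, SD, n = 8). Over the cerebral cortex, taken as the mean of the 31 sub-regions of each animal, MBP ran from 1425 to 1923 CPM with a median of 1739 (1696 ± 191). No callosum sample came near the cortex, in which the highest single sample reached 4461 CPM. MOBP had 943 to 1500 CPM in the callosum (median 1179) and 21.5 to 28.2 CPM in the cortex of the 8 animals (median 23.1). Its highest cortical sample had 63.0 CPM, again below every callosum sample. Of the 17121 genes that passed the filter on low counts over all samples, 11.4% had every callosum sample above all cortical samples.

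The surface and junction genes were separated as well. MOG had 1573 to 2123 CPM in the callosum (median 2007) against 44.1 to 66.3 CPM in the cortex (median 53.7). MAG had 1473 to 1824 CPM (median 1674) against 36.9 to 58.3 CPM (median 48.1). Both genes varied little among the callosum samples, with 1954 ± 174 CPM for MOG and 1671 ± 123 CPM for MAG (SD, n = 8). CLDN11 had 336 to 559 CPM in the callosum (median 445) and 7.05 to 11.3 CPM in the cortex (median 9.98). For each of these 3 genes the lowest callosum sample lay above the highest single cortical sample, which was 150 CPM for MOG, 143 CPM for MAG and 25.8 CPM for CLDN11.

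The enzymes and ermin showed the same separation. CNP had 1558 to 1960 CPM in the callosum (median 1790) and 48.5 to 77.7 CPM in the cortex (median 66.6). UGT8 had 997 to 1619 CPM (median 1305) against 37.6 to 51 CPM (median 47). ERMN had 1170 to 1969 CPM (median 1506) against 21.6 to 41.9 CPM (median 38.2). Single cortical samples reached 153 CPM for CNP, 126 CPM for UGT8 and 125 CPM for ERMN, all below the callosum.

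By edgeR's quasi-likelihood test with the animal as a block, all 8 genes were higher in the callosum than in the cortex, where a gene was called at a Benjamini-Hochberg adjusted p (FDR) under 0.05 and a fold above 2. Of the 16906 genes tested, 20.0% were called higher by this rule. The difference was widest for MOBP, with a log2 fold change (log2FC) of 5.64 (SE 0.27), followed by CLDN11 at 5.58 (47.9-fold) and ERMN at 5.53 (46.3-fold). It was 5.19 for MOG, 5.17 for MAG and 5.03 for MBP, and it was narrowest for UGT8 at 4.85 (28.8-fold) and CNP at 4.82 (28.2-fold). The median of the 8 genes was 5.18 (36.2-fold), beside -0.02 over all genes tested, and the FDR ran from 1.1e-49 to 1.2e-37. As a share of all counts, the 8 genes took 6.02% ± 0.405 of the callosum libraries (SD, n = 8), of which MBP alone took 5.09% ± 0.383. In the cortex they took 0.196% ± 0.0205.

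Ordered by the mean log2 level of the 8 genes, the sub-regions ran from 11.01 ± 0.14 in the corpus callosum (SD, n = 8) to 1.60 ± 0.21 in the pituitary. The globus pallidus, a nucleus of the basal ganglia crossed by many fibre bundles, came next to the callosum at 10.10 ± 0.31. The ventral tegmental area (9.84 ± 0.15), the medulla oblongata (9.72 ± 0.45) and the pons (9.34 ± 0.29) followed. The substantia nigra (8.62 ± 0.30), putamen (8.29 ± 0.28), thalamus (8.22 ± 0.29) and hypothalamus (7.54 ± 1.05) formed the next stretch. Below them, grey matter inside and outside the cortex was interleaved, with CA3 of the hippocampus at 6.79 ± 0.49 and the caudate nucleus at 6.77 ± 0.33 just above the highest cortical sub-region. Between neighbours in this order the mean paired difference was larger than its SD in 3 of 50 steps, and in these it was positive in 8 of 8 animals. They were the steps from the callosum to the globus pallidus (0.91 ± 0.32), from the pons to the substantia nigra (0.72 ± 0.35) and from the temporal polar gyrus to the pituitary (2.52 ± 0.41). The other neighbours did not differ beyond their spread.

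**Figure D1:**
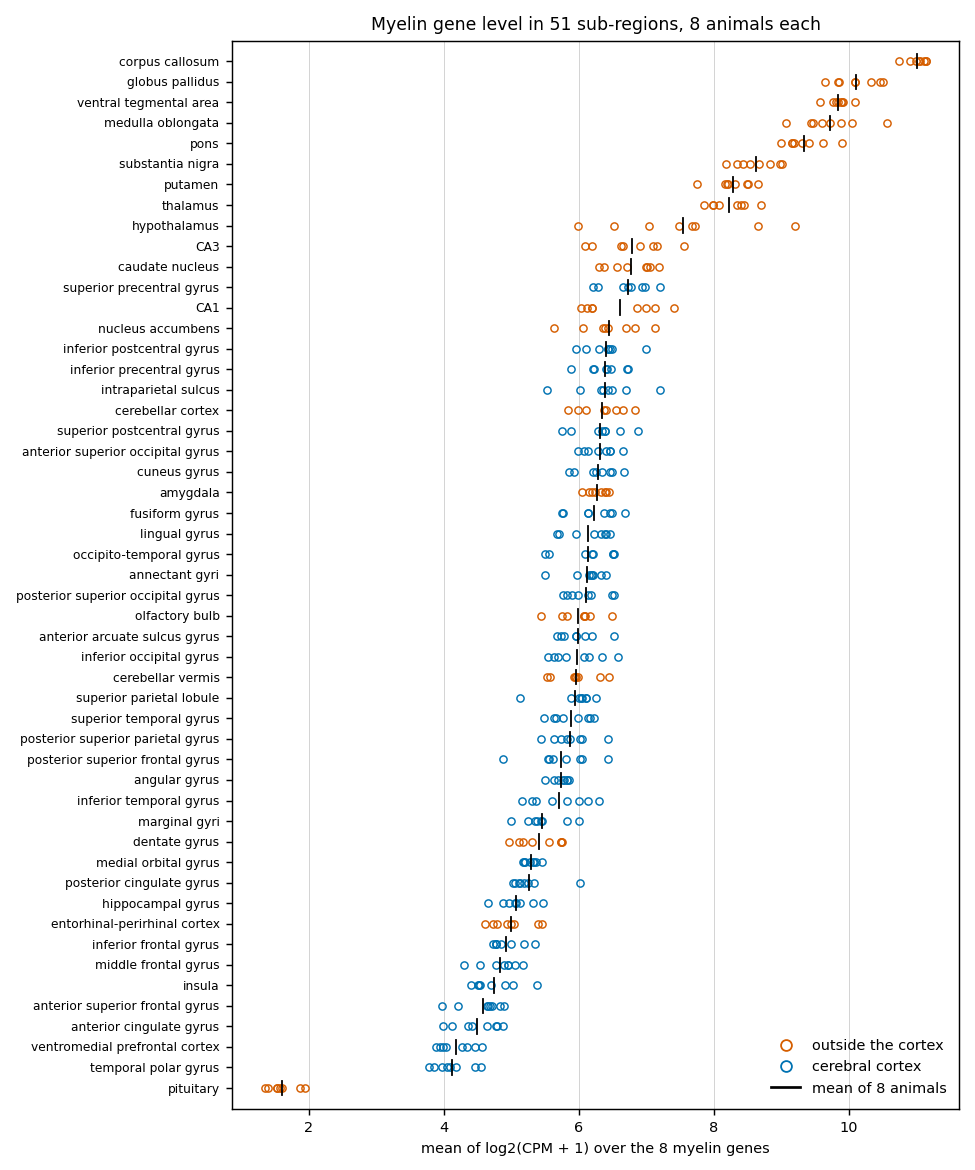
Mean of log2(CPM + 1) over the 8 myelin genes in each of the 51 sub-regions, ordered by level, with 1 point per animal (n = 8) and the mean of each sub-region. The corpus callosum stands alone at 11.01, the cortical sub-regions lie between 4.12 and 6.72, and the pituitary stands apart at 1.60.

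Across all 51 sub-regions at once, each of the 8 genes differed by the F test of edgeR (FDR under 0.05), as did 99.5% of all genes tested. In 9 of the 20 sub-regions outside the cortex all 8 genes were called higher than in the cortex, and 82 of the 160 tests of a gene in a sub-region were called higher and 10 lower. The median log2FC of the 8 genes was 4.36 in the globus pallidus (20.5-fold, range 3.79 to 4.70), where 16.6% of all genes were called higher. It was 4.00 in the medulla oblongata (16-fold, 15.4% of all genes called higher) and 4.00 in the ventral tegmental area (16-fold, 14.2%). The pons followed at 3.50 (11.3-fold, 11.5%) and the substantia nigra at 2.77 (6.82-fold, 14.1%). The putamen had 2.59 (6.03-fold, 8.43%), the thalamus 2.44 (5.43-fold, 9.79%) and the hypothalamus 2.01 (4.04-fold, 10.9%). In 8 of these 9 sub-regions every one of the 8 samples lay above all cortical samples for all 8 genes. The share of the 17121 genes that did so was 7.48% in the globus pallidus, 5.06% in the ventral tegmental area, 4.59% in the medulla and in the substantia nigra, 4.80% in the pons, 2.77% in the putamen and 3.12% in the thalamus. The hypothalamus was the exception, and its samples overlapped the cortex for all 8 genes. The 9 sub-regions had 8 genes called higher whichever animal was left out. Markers of other cells also differed from the cortex in some of these sub-regions. The mean log2 level of 6 microglia genes lay wholly above the cortical samples (2.85 to 4.71) in the globus pallidus (5.44 to 6.42), the medulla (4.83 to 6.85), the substantia nigra (4.90 to 5.91) and, narrowly, the ventral tegmental area, and that of 12 neuron genes lay wholly below them in these 4 and in the pons, putamen and thalamus. Their part in the result was not tested.

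In 4 further sub-regions some of the 8 genes passed the threshold. In CA3, 4 genes were higher, MOBP (log2FC 1.21), CLDN11 (1.20), ERMN (1.14) and MOG (1.13), where 6.20% of all genes were called higher. In the caudate nucleus 4 genes were higher, ERMN (1.25), CLDN11 (1.20), MAG (1.14) and MOG (1.12), beside 9.59% of all genes. In CA1 only CLDN11 was (1.02, beside 6.18% of all genes), and the olfactory bulb also had only CLDN11 (1.18, SE 0.22, FDR 8.1e-07 by edgeR, beside 12.5%). The CA1 count lay close to the fold threshold. It was 0 without Rhesus 3 or without Rhesus 10, 2 without Rhesus 4, and 4 without Rhesus 2, Rhesus 7 or Rhesus 8. Against averaged cortical coefficients 7 genes were called in CA3 and 5 in CA1. With 1 animal left out the count was 4 to 6 in CA3 and 4 to 5 in the caudate nucleus.

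In the nucleus accumbens, cerebellar cortex, amygdala and cerebellar vermis 0 of the 8 genes were called higher by edgeR, with median log2FC of 0.79, 0.60, 0.46 and 0.11. The shares of all genes called higher there were 8.75%, 10.3%, 5.21% and 11.1%. An unadjusted p under 0.05 was reached by 8, 6, 4 and 2 of the genes, which lay under the 2-fold threshold, beside 9620, 11251, 7602 and 11660 of all 16906 genes. Without Rhesus 6 the nucleus accumbens had 2 genes called, and without Rhesus 8 or Rhesus 10 it had 1. DESeq2 called 1 gene in the nucleus accumbens and 0 in the other 3 sub-regions. Against averaged cortical coefficients edgeR called 3 genes in the nucleus accumbens and 1 in the cerebellar cortex. In the dentate gyrus the median log2FC was -0.35, and edgeR and DESeq2 called 0 genes lower, beside 8.29% of all genes and with 3 of the 8 at an unadjusted p under 0.05, as 54.2% of all genes were. The entorhinal-perirhinal cortex, kept apart from the 31 cortical sub-regions by the study, had MBP (-1.23), MAG (-1.09) and MOBP (-1.01) called lower, beside 3.44% of all genes. That count was 2 to 5 with 1 animal left out and reached 5 without Rhesus 10 or without Rhesus 11, and against averaged cortical coefficients it was 1.

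**Figure D2:**
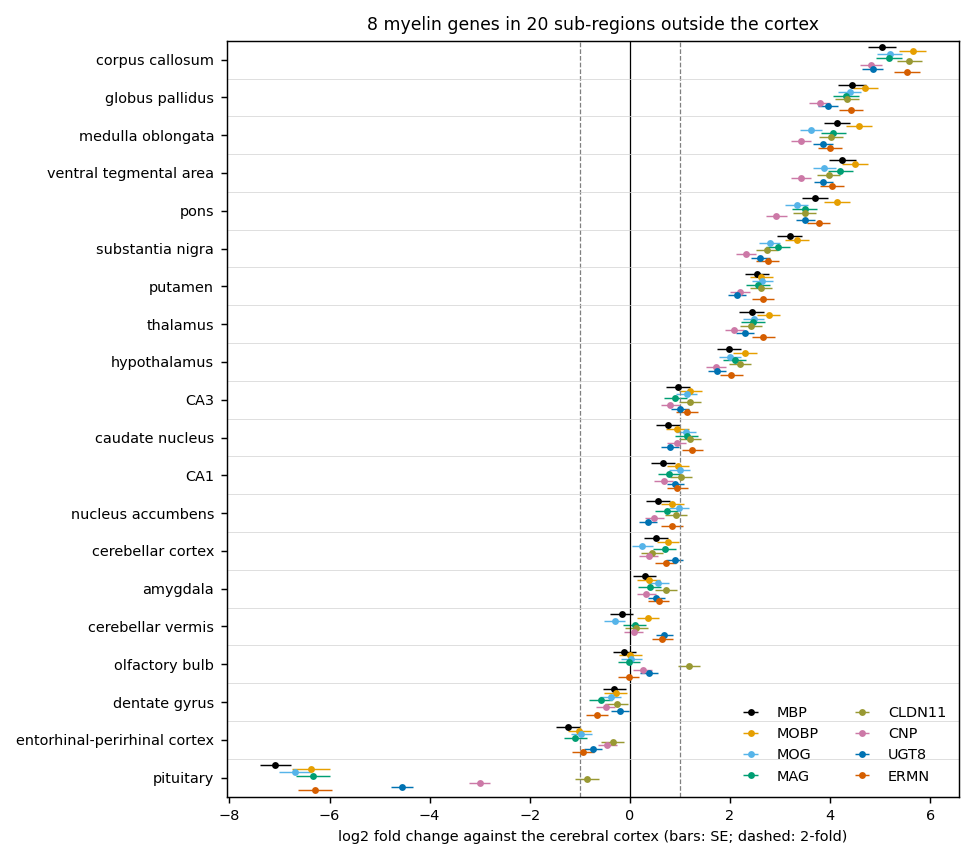
Log2 fold change of the 8 myelin genes in the 20 sub-regions outside the cortex against the cerebral cortex of the same animals (edgeR, bars are SE, n = 8 animals, dashed lines mark 2-fold). All 8 genes lie to the right of the 2-fold line from the corpus callosum down to the hypothalamus, and in the pituitary CLDN11 (-0.86) lies far from the other 7.

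The pituitary, a gland outside the blood-brain barrier whose anterior lobe has no oligodendrocytes, had the lowest level of 7 genes. MBP had 6.65 to 17 CPM there (median 12.5), and CNP 5.52 to 11.5 CPM (median 8.14). UGT8 had 0.490 to 4.30 CPM (median 1.44), MAG 0.315 to 1.57 CPM (median 0.441), ERMN 0.188 to 0.980 CPM (median 0.344) and MOBP 0.0893 to 0.587 CPM (median 0.210). MOG ran from 0 to 1.67 CPM (median 0.304), with 0 to 17 counts per library, and 3 counts, the limit that a count of 0 allows, stand for 0.196 to 0.331 CPM in these libraries. For these 7 genes every pituitary sample lay below all cortical samples, as for 11.8% of the 17121 genes. All 7 were called lower than in the cortex, beside 23.4% of all genes tested, with log2FC from -3.00 for CNP and -4.55 for UGT8 to -6.69 for MOG and -7.08 for MBP.

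CLDN11 stood apart from the other 7 in this gland. It had 2.76 to 7.05 CPM (median 5.74, 25 to 81 counts per library), which overlapped the cortex, and its log2FC of -0.86 (FDR 0.00055 by edgeR's quasi-likelihood test) did not pass the 2-fold threshold. The lowest CLDN11 level of the 51 sub-regions was not in the pituitary but in the ventromedial prefrontal cortex (2.56 ± 0.724 CPM, SD, n = 8). The samples had high levels of anterior pituitary genes, with a mean log2 level of 10.05 over 8 of them against 0.74 in the cortex. Other lists lay wholly below the cortical samples. They were the neuron (4.76 to 5.20 against 9.33 to 9.83) and astrocyte genes (2.12 to 3.76 against 6.27 to 8.08). The oligodendrocyte precursor (2.48 to 3.10 against 4.24 to 5.67) and peripheral myelin genes (1.13 to 1.77 against 3.05 to 4.02) did so as well. The microglia and the endothelial and pericyte genes overlapped. The part of these cells in the pituitary values was not tested.

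The 8 genes spread most between animals in the hypothalamus (SD 1.05 on the log2 scale, against 0.54 or less in the other 50 sub-regions), and in the medulla oblongata the sample of Rhesus 6 lay above the other 7. In the hypothalamus MBP ran from 1677 to 22454 CPM with a median of 4557, MOG from 62.2 to 538 CPM (median 181) and CNP from 79.1 to 562 CPM (median 171). The sample of Rhesus 3 was the highest, with a mean log2 level of 9.20, and that of Rhesus 6 the lowest, with 5.99. Without Rhesus 3 the median log2FC of the 8 genes against the cortex was 1.67 and without Rhesus 6 it was 2.21, and all 8 genes stayed called in both fits. In the medulla MBP ran from 15026 to 53487 CPM with a median of 26075 and MAG from 430 to 1357 CPM with a median of 663. The sample of Rhesus 6 there had a mean log2 level of 10.57 against 9.06 to 10.04 in the other 7. Without it the median log2FC was 3.95 (range 3.40 to 4.46).

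Neuron markers were low where the myelin genes were high in these samples. Of the 12 neuron markers listed all 12 were counted, and none was at 0 in all samples. Their summed level in the medulla of Rhesus 6 was 615 CPM, against 6832 to 11987 CPM in the other 7 medulla samples, and their mean log2 level was 4.64 against 7.69 to 8.78. That value lay within the range of the 8 callosum samples (4.51 to 5.98, summed level 396 to 1139 CPM). Of the 8 medulla samples this one was also the highest in several other lists. The summed level of the microglia genes there was 871 CPM against 204 to 545 CPM in the other 7, that of the astrocyte genes 14847 against 4575 to 10410 CPM, and that of the oligodendrocyte precursor genes 806 against 435 to 698 CPM. The peripheral myelin genes summed to 1152 against 247 to 599 CPM and the choroid plexus genes to 530 CPM, against at most 329 CPM in the other 7. In the hypothalamus of Rhesus 6 the neuron markers had a mean log2 level of 9.41 and a summed level of 11724 CPM, against 7.94 to 8.48 and 5197 to 9060 CPM in the other 7. Both hypothalamus values lay within the range of the cortical samples (9.33 to 9.83, 11231 to 19022 CPM). The hypothalamus of Rhesus 3, highest in the myelin genes, was the lowest in neuron markers (7.94), and the globus pallidus of Rhesus 2, whose MBP was the highest of that nucleus (73387 CPM against a median of 32592), had a neuron marker level of 6.40 against 7.35 to 7.70 in the other 7 samples. The part that the tissue taken in each block had in these values was not tested.

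**Figure D3:**
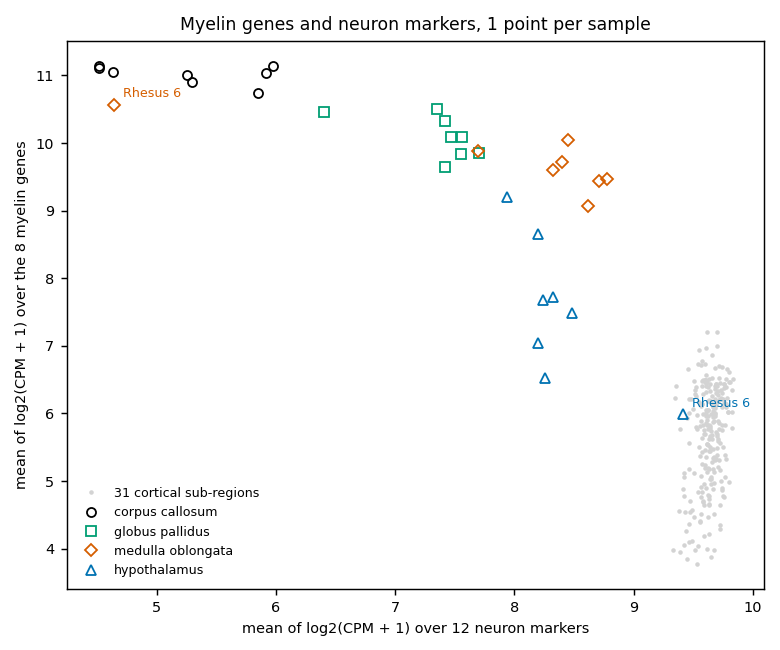
Mean of log2(CPM + 1) of the 8 myelin genes (vertical) against that of 12 neuron markers (horizontal), 1 point per sample, for the corpus callosum, globus pallidus, medulla oblongata, hypothalamus and the 31 cortical sub-regions. The medulla sample of Rhesus 6 (4.64, 10.57) lies beside the callosum samples and the hypothalamus sample of Rhesus 6 (9.41, 5.99) lies among the cortical samples.

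Within the cerebral cortex the 8 genes followed a gradient. It was highest in the gyri around the central sulcus, where the precentral gyri hold motor cortex and the postcentral gyri somatosensory cortex, and lowest in the temporal pole and the ventromedial prefrontal cortex. All 8 genes differed among the 31 sub-regions by the F test of edgeR (FDR under 0.05), as did 74.9% of the genes tested. The superior precentral gyrus had the highest mean level of all 8 genes (mean log2 level 6.72 ± 0.34, SD, n = 8). The inferior postcentral (6.40 ± 0.31) and inferior precentral gyri (6.38 ± 0.28), the intraparietal sulcus (6.38 ± 0.49) and the superior postcentral gyrus (6.31 ± 0.36) came next. The lowest were the insula (4.75 ± 0.33), the anterior superior frontal (4.58 ± 0.32) and anterior cingulate gyri (4.50 ± 0.33), the ventromedial prefrontal cortex (4.19 ± 0.26) and the temporal polar gyrus (4.12 ± 0.27). The steps between neighbours were small, and in 0 of 30 was the mean paired difference of the 8 genes together larger than its SD.

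The samples at the top and at the bottom of this order, which the 8 genes themselves set, did not overlap for any of them, and the upper ones lay above the lower ones for 2.88% of the 17121 genes. MBP had 2038 to 4461 CPM in the superior precentral gyrus (median 2928) and 220 to 549 CPM in the temporal polar gyrus (median 401). MOBP had 32.2 to 63.0 CPM (median 46.9) against 4.75 to 8.83 CPM (median 6.45). For both genes the lowest precentral sample had more than 3 times the CPM of the highest temporal polar sample. MOG had 76.6 to 132 CPM (median 105) against 6.78 to 23.5 CPM (median 12.4), and MAG 67.9 to 143 CPM (median 89.3) against 8.55 to 16 CPM (median 10.1). CLDN11 had 12.3 to 25.8 CPM (median 19.2) against 2.23 to 4.84 CPM (median 3.46). These surface and junction genes were again fully separated. CNP had 65.0 to 153 CPM (median 102) against 29.2 to 41.4 CPM (median 35.7), UGT8 55.6 to 115 CPM (median 87.2) against 11.4 to 20.5 CPM (median 14.7), and ERMN 32.5 to 92.1 CPM (median 72.6) against 4.21 to 13.2 CPM (median 6.14).

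The span from the highest to the lowest cortical sub-region, on the log2(CPM + 1) scale, was 8.66-fold for MBP, 8.40-fold for ERMN, 7.94-fold for MAG and 7.78-fold for MOG. It was 6.36-fold for MOBP, 5.63-fold for CLDN11 and 5.30-fold for UGT8. CNP had the narrowest span, 2.79-fold. Part of this order depended on the pseudocount. With 0.1 in place of 1, the log2 span of ERMN (3.24) lay above that of MBP (3.12). That of CLDN11 (2.87) then lay above that of MOBP (2.83), and CNP remained the narrowest. Differences between sub-regions made up 86.2% of the variance of MOG over the cortical samples, 86.1% of MBP and 81.5% to 83.2% of MAG, MOBP and UGT8. The share was lower for ERMN (73.3%), CLDN11 (72.3%) and CNP (59.0%), of which CNP (17.3%) and ERMN (10.5%) had the most variance between animals.

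Each cortical sub-region was tested against the mean of the other 30 (FDR under 0.05, 15981 genes), and 178 of the tests of a gene in a sub-region were called, 102 higher and 76 lower. In the superior precentral gyrus all 8 genes were higher (9.84% of all genes were), with a median log2FC of 1.18 (2.27-fold). MAG led with 1.28, followed by ERMN (1.23), CLDN11 (1.21), MBP (1.18), MOBP (1.18), MOG (1.15) and UGT8 (1.07), and CNP had 0.76. All 8 were also higher in the intraparietal sulcus (5.24% of all genes called higher), the inferior postcentral (11.3%), inferior precentral (12.2%) and superior postcentral gyri (6.34%). The same held in visual and ventral areas, with all 8 higher in the anterior superior occipital gyrus (17.3%), cuneus (15.9%), fusiform gyrus (7.23%) and occipito-temporal gyrus (8.88%). The lingual gyrus (8.40%) and the annectant gyri (12.7%) had 7 genes higher, without CNP, and the posterior superior occipital gyrus (21.7%) had 6, without CNP and CLDN11. The inferior occipital gyrus had 4 (MAG, MBP, MOG and UGT8, beside 20.0% of all genes). MAG, MBP and MOG were the 3 genes called higher in the anterior arcuate sulcus gyrus (1.97%) and in the superior parietal lobule (1.71%). With no replicate block the anterior arcuate sulcus gyrus had 1 gene called.

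In 10 sub-regions the genes were lower. In the temporal polar gyrus all 8 were (22.6% of all genes were lower there), with log2FC of -2.09 for ERMN, -2.02 for MBP, -1.98 for MOG, -1.94 for MAG, -1.75 for MOBP, -1.52 for UGT8, -1.30 for CLDN11 and -0.82 for CNP. In the ventromedial prefrontal cortex all 8 were lower as well (16.8% of all genes), from -2.02 for MBP to -0.80 for CNP, with CLDN11 at -1.76. The other sub-regions with all 8 lower were the anterior superior frontal (10.4%) and anterior cingulate gyri (16.9%), the insula (16.6%), the middle (5.16%) and inferior frontal gyri (4.41%) and the hippocampal gyrus (6.19%). The medial orbital gyrus (4.70%) had 6 lower, without MOBP and ERMN, and the posterior cingulate gyrus (8.13%) had 6, without CNP and MAG. Without Rhesus 2 the count in the posterior cingulate gyrus was 3. In 6 sub-regions, the posterior superior parietal, superior temporal, posterior superior frontal, angular, inferior temporal and marginal gyri, 0 of the 8 genes were called by edgeR or by DESeq2. Of all genes 1.26%, 2.46%, 13.8%, 0.619%, 4.92% and 2.13% were called in that order. The number of the 8 at an unadjusted p under 0.05 was 5, 5, 1, 0, 0 and 3, beside 11.6%, 13.3%, 25.8%, 8.74%, 15.2% and 11.6% of all genes.

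**Figure D4:**
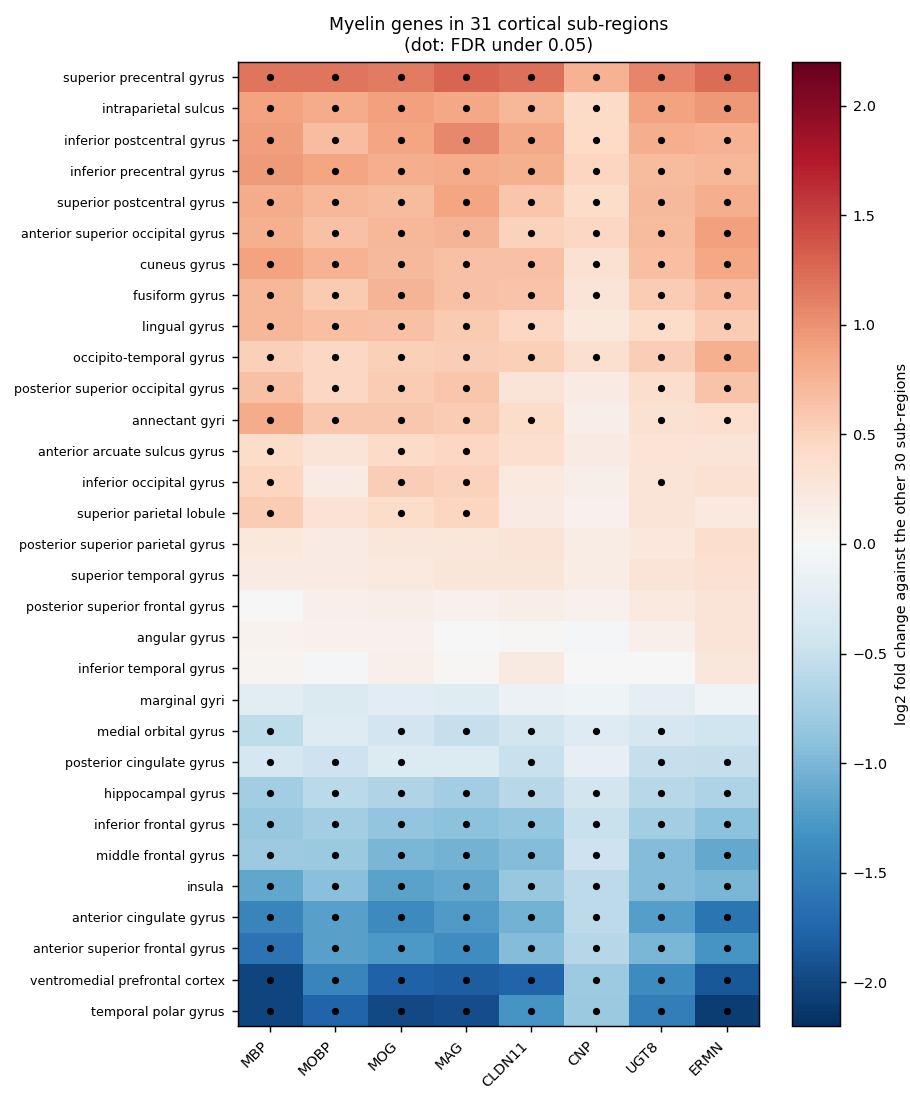
Log2 fold change of each myelin gene in each of the 31 cortical sub-regions against the mean of the other 30 (edgeR, n = 8 animals), in colour from blue (lower) to red (higher), with a dot where the FDR was under 0.05. The colour runs from red in the superior precentral gyrus to blue in the temporal polar gyrus in all 8 columns and is palest for CNP, which spans 0.76 to -0.82.

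The order was much alike from animal to animal. Kendall's coefficient of concordance of the 31 sub-regions over the 8 animals was 0.824 for the mean of the genes, 0.848 for MBP, 0.837 for MOG, 0.825 for MAG and 0.691 for CNP, as a description. The superior precentral gyrus ranked first in 4 of 8 animals and among the first 10 in all 8. The temporal polar gyrus ranked last in 5 of 8 animals, and the ventromedial prefrontal cortex was among the last 3 in all 8.

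By lobe, as the study assigned the sub-regions, the 8 genes were highest in the occipital and parietal lobes. MBP averaged 2224 ± 292 CPM in the occipital and 1357 ± 262 CPM in the frontal lobe (SD, n = 8 animals). Summed per animal and tested against the mean of the other 4 lobes by edgeR, all 8 genes were higher in the occipital lobe, with log2FC of 0.27 to 0.54, where 29.9% of all genes were called higher. In the parietal lobe 7 genes were higher (4.69% of all genes), without CNP, with a median of 0.38. In the frontal lobe all 8 were lower, from -0.21 to -0.46 (20.9% of all genes), although it holds the superior precentral gyrus, the highest sub-region. The limbic lobe had 5 lower (7.42%), ERMN (-0.37), UGT8 (-0.32), MAG (-0.29), MBP (-0.25) and MOG (-0.21). In the temporal lobe 4 were lower (12.1%), MBP (-0.30), MOBP (-0.26), MOG (-0.25) and MAG (-0.24). The calls in these last lobes rested on the pairing by animal, and with no replicate block 0 genes were called in the limbic and 0 in the temporal lobe, beside 6 in the frontal, 5 in the parietal and 7 in the occipital lobe. The limbic count was also 3 with no filter on low counts and 8 with averaged sub-region coefficients.

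The 8 genes varied together across the brain. Over the means of the 51 sub-regions the 28 pairs of genes had Pearson's r of 0.887 to 0.996, with a median of 0.982, as a description of points that share animals and libraries. MOG and MAG were the closest pair, and MBP and CLDN11 the most distant. Over the 31 cortical means alone r was 0.971 to 0.996.

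Against this shared pattern, single genes departed, some in many sub-regions. Relative to the cortex, and set against the mean of the other 7 genes, CNP lay below in 8 of 8 animals in 15 of the 20 sub-regions outside the cortex and above in 2, and MOBP lay above in 8 of 8 animals in 8 of them. MOBP was 0.45 higher in the callosum on the log2 scale and CNP -0.56, each in the same direction in 8 of 8 animals, as were ERMN (0.39), CLDN11 (0.26) and UGT8 (-0.45). In the medulla the same measure was 0.65 for MOBP and -0.71 for CNP. CLDN11 stood 1.00 above the other 7 in the olfactory bulb, where it had 15.7 to 34.8 CPM against 1.49 to 25.8 CPM in single cortical samples, and 3.90 above them in the pituitary, in 8 of 8 animals each. In the cerebellar vermis UGT8 (0.54) and ERMN (0.55) stood above the others in 8 of 8 animals, and MOG (-0.52) and MBP (-0.34) below them in 8 of 8.

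A list of 40 other genes of myelin and oligodendrocytes was followed beside the 8, of which 33 were found in the table. In the callosum 31 of the 33 were called higher than in the cortex and 0 lower by edgeR, with a median log2FC of 4.46. The highest were ENPP6 (5.74), a choline phosphodiesterase of newly formed oligodendrocytes, and NIPAL4 (5.55), a magnesium transporter. MYRF, the transcription factor of myelin genes, had 5.14. At the low end of those called were TSPAN2 (1.43) and OMG (1.42). Not called were ANK3 (0.70), whose product anchors proteins at nodes and in neurons, and GJC3 (-0.21). GJC3 was barely counted, with 0.373 to 1.20 CPM in the callosum and 0.498 to 1.18 CPM in the cortex. Of the 33 genes, 30 were higher in the globus pallidus, 29 each in the ventral tegmental area and the medulla, 28 each in the pons and the substantia nigra, 27 in the thalamus, 26 in the putamen and 25 in the hypothalamus. In the pituitary 25 were lower and 3 higher. In the cortex the list followed the same gradient, with 29 of 33 genes higher in the superior precentral gyrus and 25 lower and 2 higher in the temporal polar gyrus.

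Of the 12459 genes with a mean of at least 1 CPM compared by level over the 51 sub-region means, those most like the mean of the 8 genes, the 8 themselves left out, were MYRF (Pearson's r 0.997), ANLN (0.994), EVI2A (0.993), PLLP (0.992), MAL (0.988), FA2H (0.988), S1PR5 (0.986), KLK6 (0.985), PPP1R14A (0.985) and GPR37 (0.983). All but EVI2A and PPP1R14A were in the list of 33. Ranked by Spearman's rho, 5 of these 10 were among the first 10.

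Lists of other cell types were read beside the cortical gradient, as descriptions over 31 sub-region means that share animals and libraries. The mean level of the other 33 myelin and oligodendrocyte genes had Pearson's r of 0.996 with that of the 8 genes. For 6 oligodendrocyte precursor genes r was -0.69, for 6 microglia genes -0.74, for 8 astrocyte genes -0.49 and for 12 neuron genes 0.36. It was 0.91 for 7 peripheral myelin genes and 0.87 for 6 ependymal genes, -0.73 for 7 choroid plexus genes and -0.56 for 8 anterior pituitary genes, and -0.03 for 6 endothelial and pericyte and -0.05 for 3 blood genes. The log2 of the total count had r of -0.21. What part other cells had in the gradient was not tested. In the callosum, 3 lists of other cells lay wholly above the cortical samples in mean log2 level. They were the choroid plexus genes (3.33 to 6.33 against 0.58 to 2.55), the microglia genes (4.90 to 6.30 against 2.85 to 4.71) and the oligodendrocyte precursor genes (6.02 to 6.52 against 4.24 to 5.67). The ependymal genes reached higher but overlapped (2.88 to 4.74 against 2.07 to 2.96), and the neuron genes lay wholly below (4.51 to 5.98 against 9.33 to 9.83). The part of these cells in the callosum values was not tested.

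Age stage and sex were each tested in 16 region groups, with 4 animals against 4 and the other factor in the fit. For age, 0 of 124 tests of a myelin gene passed an FDR under 0.1 with an absolute log2FC above 1, beside 0.0153% of all tests. These cut-offs were those of the study, whose FDR came from permutations and not, as here, from Benjamini-Hochberg adjustment. At an unadjusted p under 0.05 there were 5, or 4.03% of the tests, against 5.73% of the tests of all genes. With 1 animal left out that number lay between 2 (without Rhesus 6 or Rhesus 8) and 12 (without Rhesus 7). The lowest FDR of the 124 tests was 0.447, for MOBP in the thalamus, which was not among the 5. DESeq2 also called 0 genes. The log2FC of mid-aged over young animals lay between -0.62 and 0.61, with a median SE of 0.22. In the pituitary 4 of the genes (MAG, MOBP, MOG and ERMN) fell under the filter on low counts and were not tested.

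Among the 5 was MAG in the cortex, with 36.9 to 47.6 CPM in the young and 48.5 to 58.3 CPM in the mid-aged animals (log2FC 0.31, not called by edgeR). The 4 mid-aged animals lay above the 4 young ones, while the other 7 genes overlapped between the stages in the cortex. Over the 17121 genes, the stages did not overlap for 3.71% in the cortex and for 2.86% in the callosum. CLDN11 in the callosum had 445 to 559 CPM in the young and 336 to 444 CPM in the mid-aged animals (log2FC -0.33, not called by edgeR). CNP in the callosum also did not overlap, with 1796 to 1960 CPM in the young and 1558 to 1783 CPM in the mid-aged animals (log2FC -0.15), and the other 6 genes did. The log2FC was negative for all 8 genes in the callosum, between -0.07 and -0.33, and positive for all 8 in the hippocampus (0.21 to 0.61), medulla (0.25 to 0.54), olfactory bulb (0.15 to 0.38), ventral tegmental area (0.05 to 0.39) and cerebellum (0.01 to 0.26). In the other 10 region groups, among them the pituitary with 4 genes tested, both signs occurred. Because the 8 genes varied together, a shared sign is not 8 separate results, and no age difference was called. The other 3 tests were MAG (0.53), MOG (0.48) and UGT8 (0.43) in the hippocampus.

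**Figure D5:**
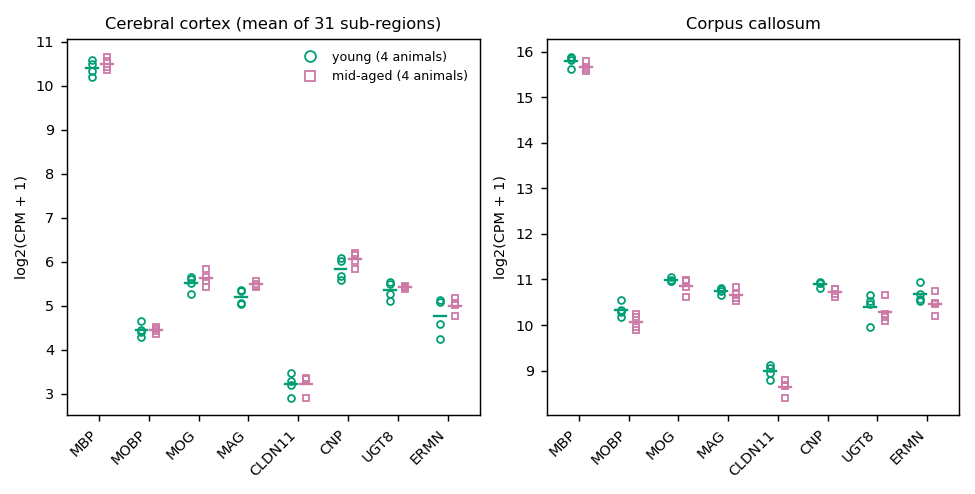
Log2(CPM + 1) of the 8 myelin genes in the cerebral cortex (left, mean of 31 sub-regions per animal) and in the corpus callosum (right), with 1 point per animal for 4 young (circles) and 4 mid-aged (squares) animals and a line at each mean. The groups overlap for all genes but MAG in the cortex and CLDN11 and CNP in the callosum, none of which passed the test.

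For sex, 0 of 124 tests of a myelin gene were called by edgeR, beside 0.103% of all tests, and DESeq2 called 0. There were 3 at an unadjusted p under 0.05, or 2.42% of the tests, against 3.56% of the tests of all genes. With 1 animal left out the number lay between 1 (without Rhesus 11) and 12 (without Rhesus 7). All 3 were in the thalamus and negative for female over male animals, ERMN (log2FC -0.49), CLDN11 (-0.44) and CNP (-0.33).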

How the data were processed

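RNA-seq counts of 8 animals and 51 sub-regions were used, and 33 ATAC-seq and 8 midbrain samples were not analysed here. The authors mapped the reads to Mmul 8.0.1, counted them on the genes of Ensembl 91 and deposited the raw gene counts as whole numbers, not normalized. The submitters' processing notes name Trim Galore 0.4.4, HISAT2 2.0.5 and HTSeq 0.6.1. How the counting treated strand and overlaps is not given in the sources used here, which leaves counts of overlapping genes uncertain. Symbols came from a reference table, except those of MAG, CLDN11 and 10 other listed genes, KLK6 among them, which came from the gene names of the study's supplement. The reference at hand is of another build, and coordinates were not used here. The 8 genes and the lists of other genes were chosen with earlier results of these data known.

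Samples were grouped by the sub-region and animal in their labels. Counts were tested in R 4.3.3 with edgeR 4.0.16 (TMM, filterByExpr, quasi-likelihood F test, limma 3.58.1), with Benjamini-Hochberg adjustment over all genes of a contrast. Cortical counts were summed per animal for the contrasts outside the cortex, and counts of a lobe or region group likewise. Samples with the same number come from the same animal by the labels, so the animal was a block. Age and sex were fitted together, without a block. In the fits with a block, p-values measure the spread left once differences between animals are taken out, shared by all groups of a fit. They do not measure the spread of a single sub-region, such as the wide one of the hypothalamus. In the fits of age and sex they measure the spread between these 8 animals. The SE of a log2FC was taken from its F statistic, as the absolute log2FC over the root of F. Levels used a pseudocount of 1, in Python 3.11.15 with numpy 2.4.6, pandas 2.3.3 and matplotlib 3.10.9. Genes were named if they were among the 8, at either end of the list of other myelin genes, or among the 10 most alike in pattern.

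The fits were tested on simulated counts with known answers. They recovered 173 of 200 genes changed 4-fold in the corpus callosum and 186 of 200 changed 4-fold with age in the callosum. Of 200 changed 1.5-fold they recovered 148 in the insula and 138 in the frontal lobe. Other genes called numbered 0, 3, 9 and 7 in that order. The simulation had the same dispersion for all genes and no differences between animals, so recovery in the real data may differ. Alternatives were DESeq2 1.42.0, its size factors in edgeR, no filter on low counts, no block, a fold above 4, coefficients averaged in place of summed counts, each animal left out, a pseudocount of 0.1, plain library totals and Spearman's rho. The fits of sub-regions with 1 animal left out kept the dispersion trend of the fit with all animals, so they were not full refits.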

Additional observations from a re-analysis of the deposited data

Results flagged for a closer look

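In 3 of 51 sub-regions 1 sample lay apart from the other 7 in the mean log2 level of the 8 myelin genes, by the ratio of its gap to the range of the group. Chance alone gives such a sample in about 1 in 20 groups. In the annectant gyri it was Rhesus 4, with 5.50 against 5.98 to 6.40 in the others. In the superior parietal lobule it was also Rhesus 4, with 5.12 against 5.88 to 6.25. In the posterior cingulate gyrus it was Rhesus 7, with 6.02 against 5.03 to 5.34. Single genes had such a sample in 1 (MOBP, UGT8) to 5 (CLDN11) of the 51 sub-regions.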

How the results depend on the processing

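No gene called in a comparison changed direction under an alternative run. In the olfactory bulb, where the median log2FC of the 8 genes was 0.02, it ran from -0.08 to 0.11 with 1 animal left out. Over the alternatives the calls higher than the cortex numbered 81 to 94 of 160, and 68 at a fold above 4, against 82 as reported. With 1 animal left out they were 81 to 88 and the calls lower 9 to 12. In 22 cortical sub-regions they were 90 to 94 higher and 71 to 77 lower. These 22 were picked as the ends of the cortical order or because most of the 8 genes were called there with all animals. The other cortical sub-regions were not refitted, so these counts do not speak for them. Age and sex gave 0 to 0 calls each. Their tests at an unadjusted p under 0.05 then ranged from 2 to 12 for age, against 5, and from 1 to 12 for sex, against 3. With no replicate block, which drops the pairing by animal, the calls lower in lobes went from 17 to 6 and higher from 15 to 12, those higher outside the cortex from 82 to 85, and those in cortical sub-regions from 102 to 97 higher and 76 to 72 lower. It left 1 gene in the anterior arcuate sulcus gyrus in place of 3.

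By region, CA1 had 2 genes with DESeq2 or its size factors, 5 with averaged cortical coefficients, 0 with no filter on low counts and 3 with no block, against 1. With averaged coefficients CA3 had 7, the nucleus accumbens 3, the cerebellar cortex 1 and the entorhinal-perirhinal cortex 1, the last having 5 with no filter. The limbic lobe had 8 lower with averaged coefficients and 3 with no filter, against 5, and with no block it and the temporal lobe, with 4, each had 0. By Spearman's rho 5 of the 10 genes most alike in pattern were kept. A pseudocount of 0.1 widened the cortical range of CLDN11 from 2.49 to 2.87 on the log2 scale. The size factors of DESeq2 shifted the median of all genes by at most 0.04. Low counts in the pituitary limit the folds of MOG, MAG, MOBP and ERMN there, and 4 animals a group limit age and sex.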
